A study of Mus musculus with 7 samples.

Results

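The immediate early and activity response genes examined here are 40 genes, chosen by name from the textbook set of genes that cells switch on within minutes of stimulation, out of 46333 genes counted in neuron preparations from mouse brain. RNA was sequenced from adult female littermates of 2 genotypes. Both carried il4ra fl/fl, that is, 2 alleles of the interleukin-4 receptor alpha gene with part of it flanked by loxP sites. In il4ra fl/fl.Syn cre+ mice (3 libraries) neurons express Cre recombinase, since the synapsin 1 promoter controls it, and in il4ra fl/fl.Syn cre- mice (4 libraries) Cre was absent, so that only the cre+ animals should lose the receptor, and only in cells that use this promoter. Whole brains were dissociated with warm enzymes and neurons were enriched by magnetic removal of glia, one library per sample.

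Immediate early genes need no new protein to be transcribed. Calcium entry, cAMP and growth factors act through kinases on the factors CREB and SRF that are already bound near these genes, and the first products are mostly transcription factors (the AP-1, EGR, NR4A and KLF families) together with proteins that end the response, such as the phosphatases of the DUSP family. In neurons a few of them, Arc, Npas4, Nptx2, Egr3, Egr4 and Homer1, follow synaptic activity and in brain are expressed mostly by neurons. These 6 are called neuron-restricted below, a class set from textbook expression and not tested in these preparations. The other 34 are used by most cell types, blood vessel cells and glia included, and can also be induced by the stress of dissociating a tissue.

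Promoters of such genes are known for elements that bind CREB or SRF, and upstream stretches of the genes that the results turn on are shown here. The sequences are from the GRCm39 genome, upstream of the start of the canonical GENCODE M39 transcript, on the strand of the gene. Capitals mark a cAMP response element, CRE (TGACGTCA, bound by CREB), its core (TGACG or, on the other strand, CGTCA), a CArG box (the site of SRF) or a site for EGR factors (GCGTGGGCG or GCGGGGGCG, either strand). A CRE contains the core on both strands. Fos is shown because it has 4 cores beside a CArG box, Arc as a neuron-restricted member with 0 cores, Dusp1, Sik1 and Ier2 as members with a full CRE, and Klf2 and Klf4 as the KLF genes with cores and an EGR site.
Fos (chr12:85520318-85520608, plus strand, bases 340 to 50 upstream): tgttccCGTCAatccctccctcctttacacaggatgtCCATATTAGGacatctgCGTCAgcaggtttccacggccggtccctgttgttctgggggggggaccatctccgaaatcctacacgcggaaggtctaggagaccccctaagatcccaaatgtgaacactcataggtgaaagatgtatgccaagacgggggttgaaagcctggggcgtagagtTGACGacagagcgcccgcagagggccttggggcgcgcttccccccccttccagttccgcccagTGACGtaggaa
Arc (chr15:74544420-74544539, minus strand, bases 120 to 1 upstream): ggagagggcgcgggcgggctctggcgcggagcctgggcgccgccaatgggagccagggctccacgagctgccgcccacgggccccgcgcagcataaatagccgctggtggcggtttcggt
Dusp1 (chr17:26727494-26727653, minus strand, bases 160 to 1 upstream): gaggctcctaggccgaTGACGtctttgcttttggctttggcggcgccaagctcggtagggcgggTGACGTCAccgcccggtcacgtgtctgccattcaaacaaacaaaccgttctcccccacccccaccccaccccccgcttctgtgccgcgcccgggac
Sik1 (chr17:32074868-32075028, minus strand, bases 210 to 50 upstream): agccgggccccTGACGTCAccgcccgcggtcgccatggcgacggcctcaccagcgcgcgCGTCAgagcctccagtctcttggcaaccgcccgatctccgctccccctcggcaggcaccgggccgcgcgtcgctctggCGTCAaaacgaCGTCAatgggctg
Ier2 (chr8:85389484-85389583, minus strand, bases 100 to 1 upstream): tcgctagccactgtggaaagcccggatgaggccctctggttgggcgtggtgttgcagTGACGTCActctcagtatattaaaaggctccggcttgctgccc
Klf2 (chr8:73072566-73072725, plus strand, bases 160 to 1 upstream): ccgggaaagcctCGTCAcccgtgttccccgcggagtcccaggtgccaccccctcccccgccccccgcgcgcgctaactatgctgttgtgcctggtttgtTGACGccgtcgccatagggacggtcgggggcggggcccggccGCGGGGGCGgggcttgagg
Klf4 (chr4:55532646-55532756, minus strand, bases 290 to 180 upstream): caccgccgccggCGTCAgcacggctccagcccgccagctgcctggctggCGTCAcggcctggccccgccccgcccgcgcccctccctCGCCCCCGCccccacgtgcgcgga

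A CRE was found in the 500 bases upstream of 7 of the 40 members (17.5%), against 1.96% of 21757 protein-coding promoters of the same length. These 7 were Jund, Ier2, Btg2, Dusp1, Maff, Sik1 and Trib1, and none of the 6 neuron-restricted genes was among them. The core was present in 25 members (62.5%), against 25.8% of all promoters, and the CArG box in 6 members (15.0%), among them Fos, Fosb and Egr2, against 2.76%. EGR sites were present in 5 members (12.5%), against 3.54%. An AP-1 site (TGACTCA or TGAGTCA) was present in 1 member, Csrnp1 (2.5%), against 7.57%. A match is a description of these letters only, and a missing match says nothing of elements farther from the gene.

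Expression was read as CPM, the counts of a gene scaled to the size of its library with TMM factors, and the libraries held 68213223 to 94376841 counts. The terms cre+ neurons and cre- neurons name the preparations as labelled, not pure neurons. Markers of endothelium (22 genes) summed to between 20104 and 28859 CPM in cre+ and between 13373 and 18539 CPM in cre- libraries. Neuronal markers (16 genes) summed to between 1693 and 2796 CPM and between 2777 and 3676 CPM. A level is therefore that of a mixture of cells. Of the 40 members 39 passed the filter on low counts. Fosl1, an AP-1 subunit, did not: it had 23, 0 and 5 counts in cre+ libraries, against 9, 0, 11 and 0 counts in cre- libraries. Levels between members can be compared only per length of their exons. On that scale Klf2 was highest in cre+ neurons, at 244 CPM per kb, followed by Jun (163 CPM per kb) and Jund (152 CPM per kb). In cre- neurons Jund was highest, at 155 CPM per kb, followed by Klf2 (132 CPM per kb). The neuron-restricted genes were low, between 0.997 (Egr4) and 5.57 (Arc) CPM per kb in cre+ neurons and between 2.44 (Egr4) and 13.5 (Arc) CPM per kb in cre- neurons. Some widely expressed members were as low. Egr2 had 1.17 CPM per kb in cre+ and 1.34 CPM per kb in cre- neurons, and Dusp5 had 1.53 and 2.04 CPM per kb. The targeted gene Il4ra had 29.5, 28.7 and 24.4 CPM in cre+ libraries, against 20.03, 23.2, 29.6 and 22.4 CPM in cre- libraries (log2 fold change 0.21 ± 0.15 SE, edgeR adjusted p = 0.487). Whole-gene counts keep the exons that are not removed and the transcripts of other cells, so this gene does not check the labels.

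The fold changes of the members differed in sign by class. The median log2 fold change (cre+ over cre-) was 0.50 over the 39 tested members and -0.04 over all 21542 tested genes. All 6 neuron-restricted genes had negative values, with a median of -1.16, and 30 of the 33 tested widely expressed members had positive values, with a median of 0.58. The exceptions were Dusp5, Egr2 and Jund. Without cre+ replicate 3 the median of the widely expressed members was 0.33 and 12 of the 33 were negative, while the neuron-restricted genes all stayed negative. With edgeR's quasi-likelihood test and Benjamini-Hochberg adjustment over all genes, no member and no gene at all was called (0% of 21542, lowest adjusted p = 0.0939). At an unadjusted p under 0.05, 13 members were higher and 3 were lower, against 10.2% of all genes higher and 9.75% lower. limma-voom also called 0 genes. DESeq2, on the same counts, called 11 members higher and 2 lower, against 6.70% of 16345 genes higher and 5.48% lower. In 8 of the 39 tested members every cre+ library lay above every cre- library, and in 2 every cre+ library lay below. Of all tested genes 8.94% and 9.72% were separated in these directions. In none of these comparisons was the share of members in the lower direction above that of all genes. Differences between members and samples below are therefore given as values, and "called" refers to DESeq2 at an adjusted p under 0.05 unless edgeR is named. Each library stands for 1 mouse, and p-values measure the spread between these mice and their preparations.

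**Figure D1:**
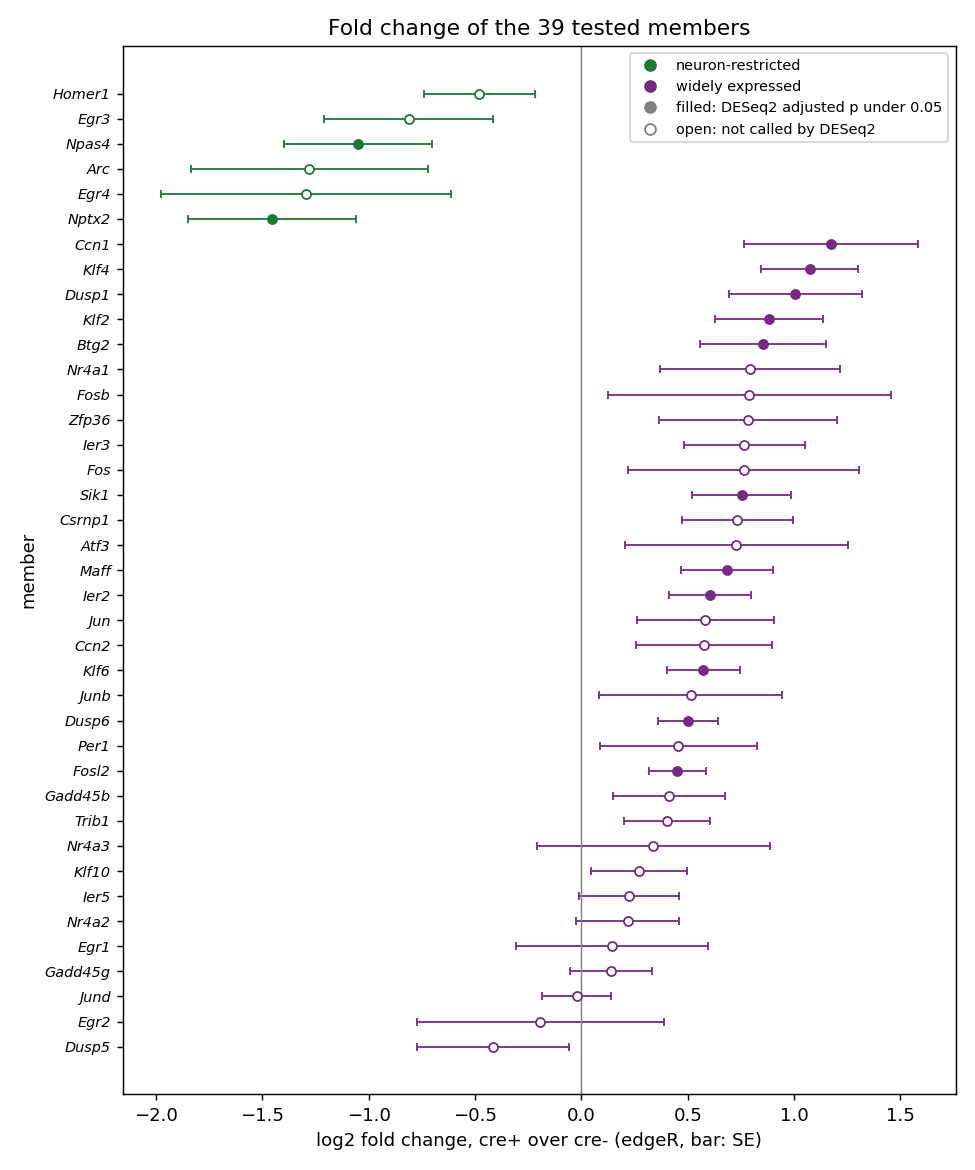
Log2 fold change (x axis, cre+ over cre-, edgeR, bars are SE) of the 39 tested members (y axis), with neuron-restricted members in green at the top and widely expressed ones in purple. Filled points are the 13 members called by DESeq2; all 6 green points lie left of 0 and 30 of 33 purple points lie right of it.

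These counts depended on single libraries and on the scaling. Without cre+ replicate 3 DESeq2 called 2 members higher (Klf4 and Maff) and 4 lower (Arc, Fosb, Npas4 and Nptx2), beside 940 genes higher and 1318 lower of 22842. Without cre- replicate 2 it called 1 member higher (Klf4) and 1 lower (Nptx2), beside 407 genes higher and 348 lower of 15005. Klf4 and Nptx2 were called in each of the 7 fits that left out a library. Scaling by library totals in place of TMM lowered the median of all genes to -0.16 and changed the split at an unadjusted p under 0.05 to 1184 genes higher and 3399 lower, against 2205 and 2100 with TMM, with 11 members higher and 5 lower.

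Among the effectors of neuronal activity, Nptx2, a secreted pentraxin that gathers AMPA receptors at synapses, had the most negative value of all members. It stood at 4.88, 7.08 and 10.5 CPM in cre+ neurons, against 30.2, 23.0, 19.0 and 9.79 CPM in cre- neurons, a log2 fold change of -1.45 ± 0.39 (edgeR adjusted p = 0.112, DESeq2 adjusted p = 0.0050). Only cre- replicate 4 fell inside the cre+ range. Npas4, a transcription factor induced selectively by calcium entry in neurons, had 7.41, 9.36 and 16.4 CPM in cre+ neurons, against 15.3, 31.7, 27.6 and 17.0 CPM in cre- neurons (-1.05 ± 0.35, DESeq2 adjusted p = 0.0299). Here cre+ replicate 3 exceeded the lowest cre- library. Arc, whose product removes AMPA receptors from synapses and forms capsid-like particles, had 5.12, 23.3 and 29.9 CPM in cre+ neurons, against 31.6, 45.9, 77.4 and 33.5 CPM in cre- neurons. The groups did not overlap, and cre+ replicate 1 stood far below the other cre+ libraries. The log2 fold change of -1.28 ± 0.56 passed neither test (edgeR adjusted p = 0.25, DESeq2 adjusted p = 0.185). Without cre+ replicate 1 it was -0.83 (edgeR adjusted p = 0.332). Homer1 encodes a postsynaptic scaffold, and its short activity-induced form Homer1a cannot be told from the long form in counts per gene. It had 25.1, 47.7 and 32.9 CPM in cre+ neurons, against 67.4, 41.9, 50.6 and 36.6 CPM in cre- neurons, and the groups overlapped.

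**Figure D2:**
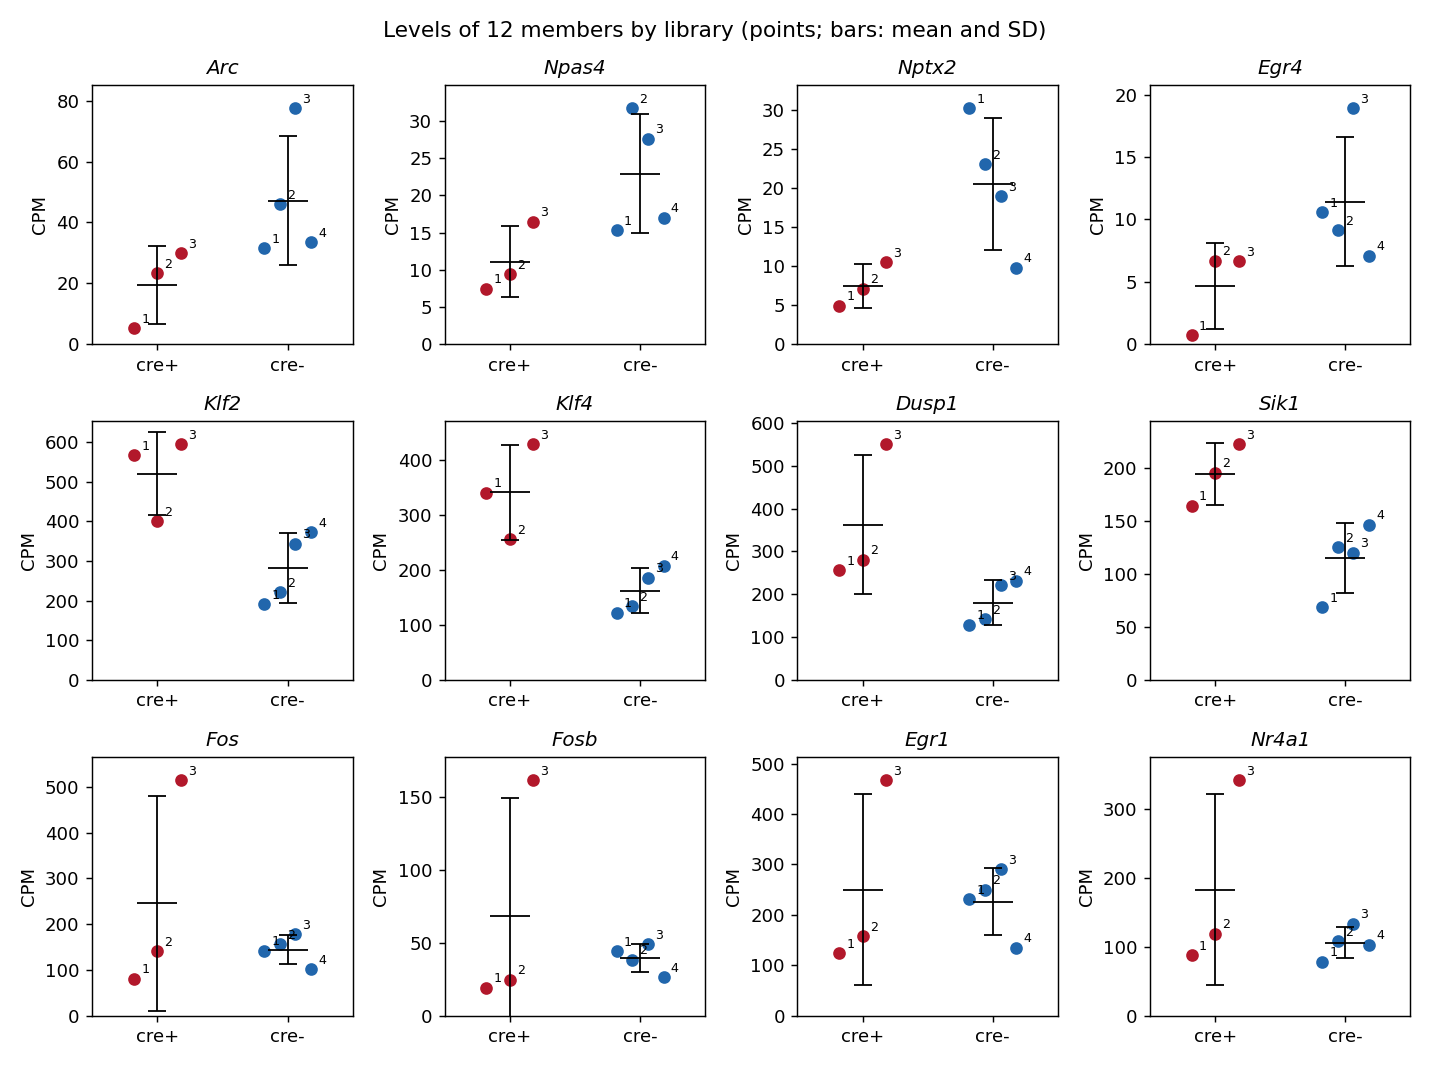
CPM (y axis, from 0) of 12 members in cre+ (red, left) and cre- (blue, right) libraries. Points are libraries with their replicate number, bars are the mean and SD, and the lower bar of Fosb runs below 0. The upper row holds neuron-restricted genes, the middle row genes whose cre+ libraries all lie above the cre- libraries, and the lower row genes in which cre+ replicate 3 stands apart.

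The EGR family comprises zinc finger factors that relay activity to later genes, and 3 of its 4 members had negative values. Egr4 had 0.70, 6.67 and 6.62 CPM in cre+ neurons, against 10.6, 9.13, 18.9 and 7.08 CPM in cre- neurons, with no overlap (-1.29 ± 0.68). Egr3 had 7.77, 19.6 and 21.4 CPM in cre+ neurons, against 35.1, 21.8, 39.6 and 17.5 CPM in cre- neurons, and the groups overlapped (-0.81 ± 0.40). Neither was called by edgeR or DESeq2. Egr1, which most cell types induce, had 124, 158 and 467 CPM in cre+ neurons, against 230, 249, 291 and 134 CPM in cre- neurons. The fold change of 0.14 ± 0.45 on the log2 scale turned to -0.68 without cre+ replicate 3, and it was also negative with limma-voom and without cre- replicate 4. Egr2 had a log2 fold change of -0.19 ± 0.58.

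The same cre+ library was lowest for all 6 neuron-restricted genes. The median log2 difference of these 6 genes from the mean of the cre- libraries was -1.87, -0.80 and -0.55 in cre+ replicates 1, 2 and 3, and 0.18, -0.07, 0.45 and -0.49 in cre- replicates 1, 2, 3 and 4. The general neuronal markers, 16 genes such as Rbfox3 and Elavl3, moved with them. All 16 had negative log2 fold changes, with a median of -0.54, and 6 were called lower. Their summed level ranged between 1693 and 2796 CPM in cre+ libraries and between 2777 and 3676 CPM in cre- libraries, lowest in cre+ replicate 1, and none was at 0 in any library. In bulk RNA fewer neurons and less RNA per neuron cannot be told apart. Taken per 1000 CPM of summed neuronal markers, Nptx2 amounted to 2.88, 2.97 and 3.75 in cre+ libraries, against 8.21, 7.43, 5.56 and 3.53 in cre- libraries. Arc amounted to 3.02, 9.78 and 10.7 on this scale in cre+ libraries, against 8.58, 14.8, 22.7 and 12.1 in cre- libraries. On this relative scale the groups overlapped for all 6 genes, and the log2 ratio of the means was 0.06 for Homer1 and between -0.95 (Nptx2) and -0.34 (Egr3) for the other 5. The divisor is made of genes with negative fold changes, which raises cre+ values, and the share of all genes on this scale was not computed. With the neuronal marker level as a covariate the median over the 6 was -0.0028 and no member was called by DESeq2. In that fit only 249 of 23239 genes were called higher and 143 lower, and the covariate itself differs between the genotypes.

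**Figure D3:**
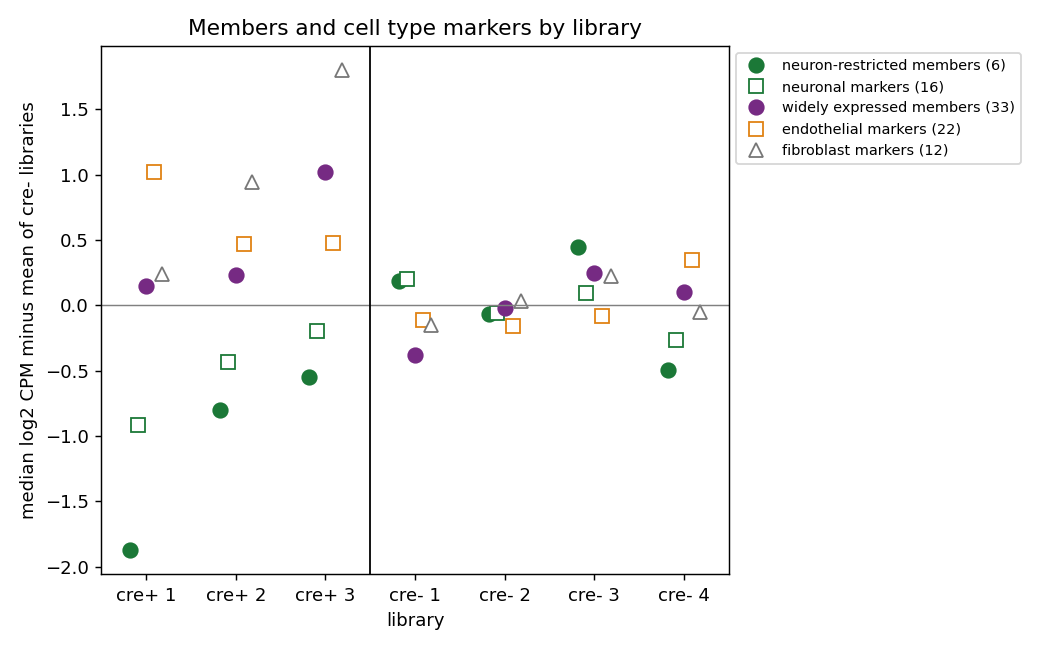
Median log2 CPM relative to the mean of the cre- libraries (y axis) in each library (x axis, cre+ left) for the 6 neuron-restricted members, the 33 widely expressed members and the markers of neurons (16), endothelium (22) and fibroblasts (12). Neuron-restricted members lie at -1.87, -0.80 and -0.55 in cre+ libraries, and the widely expressed members reach 1.02 in cre+ replicate 3.

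Among the widely expressed members, 3 of the 4 KLF factors had all cre+ libraries above all cre- libraries. Klf4, a zinc finger factor of endothelium and other cells under flow or stress, had 341, 256 and 429 CPM in cre+ neurons, against 122, 134, 186 and 208 CPM in cre- neurons. All cre+ libraries lay above all cre- libraries, the level was 2.11-fold higher (log2 1.07 ± 0.23), and the gene had the lowest p of all members (edgeR adjusted p = 0.0939, DESeq2 adjusted p = 0.0008). Klf2, the flow-induced factor of endothelial cells, had 566, 400 and 595 CPM in cre+ neurons, against 191, 221, 344 and 373 CPM in cre- neurons (0.88 ± 0.25, DESeq2 adjusted p = 0.0137). The groups did not overlap, although cre- replicates 3 and 4 came close to cre+ replicate 2. Klf6 had 179, 221 and 208 CPM in cre+ neurons, against 101, 132, 141 and 172 CPM in cre- neurons (0.57 ± 0.17), again without overlap. Klf10 overlapped and was not called (0.27 ± 0.22).

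Feedback regulators made up 4 of the 11 members called higher. Dusp1, a nuclear phosphatase that switches off MAP kinases, had 257, 281 and 550 CPM in cre+ neurons, against 128, 142, 221 and 231 CPM in cre- neurons (1.01 ± 0.31, DESeq2 adjusted p = 0.0179). Dusp6, a cytoplasmic phosphatase of ERK, had 112, 91.8 and 110 CPM in cre+ neurons, against 59.0, 71.4, 86.9 and 78.8 CPM in cre- neurons (0.50 ± 0.14). Both showed no overlap. Sik1, a kinase that retains CREB coactivators in the cytoplasm, had 164, 195 and 222 CPM in cre+ neurons, against 68.6, 125, 120 and 146 CPM in cre- neurons (0.75 ± 0.23), and its groups did not overlap either. Btg2, an antiproliferative factor of the mRNA decay machinery, had 121, 181 and 302 CPM in cre+ neurons, against 80.0, 103, 127 and 135 CPM in cre- neurons (0.85 ± 0.30), and cre+ replicate 1 lay inside the cre- range. Trib1, Zfp36 and Dusp5 were not called, with log2 fold changes of 0.40, 0.78 and -0.42.

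The remaining called members came from the AP-1, IER and secreted groups. Fosl2, a late subunit of AP-1, had 64.8, 52.1 and 64.5 CPM in cre+ neurons, against 41.01, 37.5, 50.6 and 47.9 CPM in cre- neurons (0.45 ± 0.14). Maff, a small MAF factor, had 16.8, 17.5 and 13.3 CPM in cre+ neurons, against 7.80, 7.94, 11.1 and 12.7 CPM in cre- neurons (0.68 ± 0.22). In both the cre+ libraries lay above all cre- libraries, narrowly so between cre+ replicate 3 and cre- replicate 4 in Maff. Ier2, a short-lived nuclear protein, had 152, 113 and 205 CPM in cre+ neurons, against 87.2, 99.4, 117 and 110 CPM in cre- neurons (0.61 ± 0.19). Ccn1, a secreted matrix protein, had 41.2, 60.6 and 155 CPM in cre+ neurons, against 27.3, 37.1, 39.2 and 48.3 CPM in cre- neurons (1.17 ± 0.41). In each of these, 1 cre+ library fell inside the cre- range. Without cre+ replicate 3 the log2 fold changes of Dusp1, Btg2, Ccn1 and Ier2 were 0.57, 0.44, 0.42 and 0.37, and none of these 4 genes was called. Of the 7 members with a CRE in the promoter, 5 were among those called higher (Dusp1, Sik1, Ier2, Btg2 and Maff), and the other two, Jund and Trib1, were not. Of the 32 tested members without a CRE, 6 were called higher. All 7 members with a CRE are widely expressed, whereas these 32 include the 6 neuron-restricted genes. A link between the CRE and the calls was not tested.

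The best known members, Fos and its relatives, were set apart by 1 library. Fos, the inducible partner in AP-1, had 80.5, 141 and 515 CPM in cre+ neurons, against 142, 157, 178 and 101 CPM in cre- neurons. Fosb had 19.3, 24.7 and 162 CPM in cre+ neurons, against 44.4, 38.6, 49.0 and 26.6 CPM in cre- neurons. In both genes cre+ replicates 1 and 2 were within or below the cre- range and replicate 3 was above it. Junb had 116, 125 and 356 CPM in cre+ neurons, against 105, 132, 220 and 100 CPM in cre- neurons. Nr4a1, an orphan nuclear receptor, had 87.7, 119 and 342 CPM in cre+ neurons, against 78.4, 108, 133 and 103 CPM in cre- neurons. Jun had 380, 386 and 796 CPM in cre+ neurons, against 220, 342, 485 and 343 CPM in cre- neurons. None of these 5 genes was called by edgeR or DESeq2, and DESeq2 gave no p for Fosb. Without cre+ replicate 3 the log2 fold changes were -0.38 for Fos, -0.85 for Fosb, -0.21 for Junb, -0.03 for Nr4a1 and 0.14 for Jun, in place of 0.76, 0.79, 0.51, 0.79 and 0.58 with all libraries.

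The level in cre+ replicate 3 was 7.35 times the mean of the other cre+ libraries for Fosb, 4.65 times for Fos, 3.81 times for Nr4a3, 3.62 times for Atf3 and 3.32 times for Egr1. In 14 of the 39 tested members (35.9%) it was 2 times or more, against 7.46% of 21138 genes with a value in the other cre+ libraries, a limit chosen after the values were seen. Cre+ replicate 3 was the highest of all 7 libraries for 23 of the 33 widely expressed members and for none of the neuron-restricted ones. Heat shock genes, 11 genes such as Hspa1a and Dnajb1 that report on stress, summed to 2717, 2530 and 2675 CPM in cre+ replicates 1, 2 and 3, and to between 2019 and 2575 CPM in cre- libraries. Their median log2 difference from the mean of the cre- libraries was 0.20, 0.16 and 0.25 in cre+ replicates 1, 2 and 3, highest of all 7 libraries in replicate 3, and lay between -0.25 and 0.14 in cre- libraries. Fibroblast markers, 12 genes such as Col1a1 and Dcn, summed to 326, 551 and 1026 CPM in cre+ replicates 1, 2 and 3, and to between 251 and 296 CPM in cre- libraries, with none at 0 in any library. The part of either list in the high levels of this library was not tested. The median over all members was 0.14 without cre+ replicate 3.

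**Figure D4:**
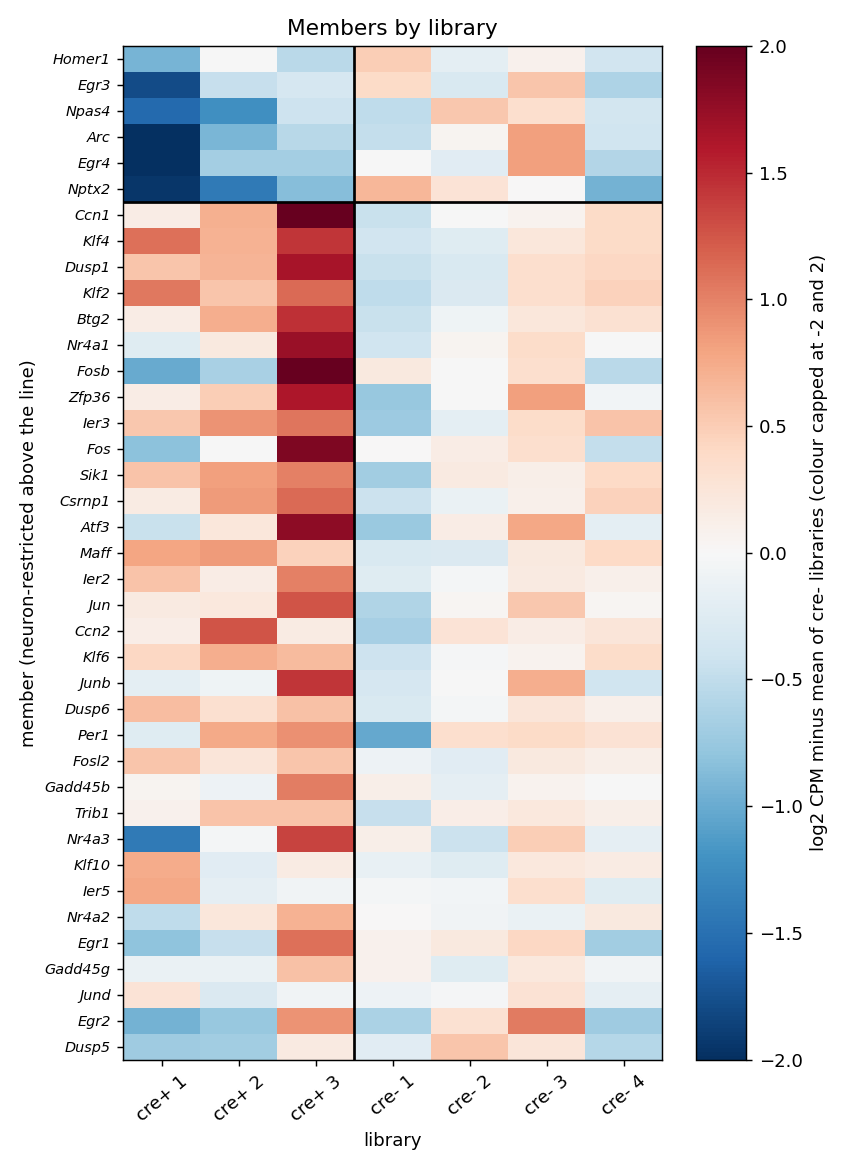
Log2 CPM of the 39 tested members (rows, neuron-restricted above the line) minus the mean of the cre- libraries, by library (columns, cre+ left). Colour runs between -2 (blue) and 2 (red) and is capped there. The column of cre+ replicate 1 is lowest for the 6 neuron-restricted genes, and that of cre+ replicate 3 is highest for 23 of the 33 others.

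The libraries are labelled as neurons but held transcripts of every marker list. The lists of other cell types had positive median log2 fold changes, as the widely expressed members did, but by library the lists differed. Medians relative to the cre- mean were 1.02, 0.47 and 0.48 for endothelial markers in cre+ replicates 1, 2 and 3. Those of the widely expressed members were 0.15, 0.23 and 1.02. The endothelial list thus did not run in parallel with these members, whereas the fibroblast medians rose in the same order, at 0.24, 0.95 and 1.80. Mural medians were also highest in cre+ replicate 3, while astrocyte, oligodendrocyte and microglial medians were higher in cre+ replicate 2 than in the other cre+ libraries. The part of any list in the levels of the members was not tested. All 22 endothelial markers had positive log2 fold changes, with a median of 0.65, and 16 were called higher. They summed to 28859, 20523 and 20104 CPM in cre+ libraries and to between 13373 and 18539 CPM in cre- libraries, and none was at 0. The median log2 fold changes were 0.73 for 13 mural, 1.05 for 12 fibroblast, 0.81 for 10 astrocyte, 0.48 for 10 oligodendrocyte and 0.45 for 11 microglial markers. The last 2 lists were uneven. Relative to the cre- mean, the oligodendrocyte median was -0.72 in cre+ replicate 1. The microglial median was highest in cre- replicate 3, at 1.88, and 0 microglial markers were called. Taken per 1000 CPM of summed endothelial markers, Klf4 amounted to 11.8, 12.5 and 21.3 in cre+ libraries, against 9.12, 10.0, 13.8 and 11.2 in cre- libraries. Klf2 amounted to 19.6, 19.5 and 29.6 in cre+ libraries, against 14.3, 16.5, 25.5 and 20.1 in cre- libraries. On this scale the groups overlapped for both, none of the 33 widely expressed members had all cre+ libraries above all cre- libraries, and 2 (Jund and Klf10) had them all below. The summed markers were themselves higher in every cre+ library, so the division lowers cre+ values of any gene. The share of all genes on this scale was not computed, so these counts say nothing particular about the members. With the endothelial level as a covariate no member was called by DESeq2, and of 22094 genes only 125 were called higher and 63 lower. Arc, Egr3, Egr4 and Homer1 had positive fold changes in edgeR with this covariate. The median of the widely expressed members was 0.74 in that fit and 0.67 with the neuronal covariate, against 0.58 without a covariate. With the endothelial covariate Klf4 was at 0.74 ± 0.35, Klf2 at 0.39 ± 0.36 and Dusp1 at 1.01 ± 0.55, with larger SEs than without it.

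The kinases and factors upstream of these genes showed no common direction. Of 33 such genes 16 had positive and 17 negative values, with a median of -0.0029. DESeq2 called 1 of the 33 higher and 2 lower, beside 6.70% of all genes higher and 5.48% lower. Srf and Creb1, the factors named above, had log2 fold changes of 0.04 ± 0.12 and 0.07 ± 0.10. Elk3, an ETS partner of SRF, had 188, 129 and 129 CPM in cre+ neurons, against 88.6, 91.4, 99.2 and 119 CPM in cre- neurons (0.58 ± 0.16, DESeq2 adjusted p = 0.0258). Camkk2, a kinase that activates CaM kinases, had 44.95, 51.1 and 50.97 CPM in cre+ neurons, against 91.4, 83.9, 87.0 and 57.1 CPM in cre- neurons (-0.70 ± 0.16, DESeq2 adjusted p = 0.0052). The groups did not overlap in either gene. The related kinase Camkk1 was also called lower (-0.99 ± 0.36), with overlap, and Rps6ka3, which encodes the CREB kinase RSK2, was not called (0.36 ± 0.11).

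Genes of the later wave, which the early factors induce, mostly had negative values, as 13 of 18 did. Their median was -0.55, beside -0.54 for the general neuronal markers and -1.16 for the neuron-restricted members. DESeq2 called 3 of the 18 lower and 1 higher, beside 5.48% of all genes lower and 6.70% higher. Bdnf, a neurotrophin released by active neurons, had 2.19, 2.59 and 3.67 CPM in cre+ neurons, against 13.5, 6.85, 5.41 and 4.45 CPM in cre- neurons (-1.42 ± 0.42, edgeR adjusted p = 0.129, DESeq2 adjusted p = 0.0122). Vgf, a neuropeptide precursor, had 14.3, 47.4 and 57.0 CPM in cre+ neurons, against 149, 88.4, 121 and 60.2 CPM in cre- neurons (-1.40 ± 0.47). Neither gene showed overlap, and in both cre+ replicate 1 was lowest, as it was for the neuronal markers. Amigo3, an adhesion molecule, was also called lower (-0.73 ± 0.23), and Plk2, a kinase induced by activity, was called higher (0.45 ± 0.14), both without overlap.

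The members that are left had smaller or less even differences. Ier3 and Csrnp1 had log2 fold changes of 0.77 ± 0.29 and 0.73 ± 0.26 and reached DESeq2 adjusted p-values of 0.0661 and 0.0647. Atf3, Ccn2, Per1, Gadd45b, Nr4a3, Ier5, Nr4a2 and Gadd45g lay between 0.14 (Gadd45g) and 0.73 (Atf3), and Jund, the constitutive Jun protein, was at -0.02 ± 0.16. None of these was called. Counts did not separate strands as far as the sources state, and 25 members overlap an annotated gene on the opposite strand. The share of a member's exonic bases covered by exons on that strand was 69.1% for Fosl1, 52.6% for Jund, 36.5% for Ccn2, 34.8% for Ier3 and between 21.6% and 23.03% for Ccn1, Dusp6, Dusp5 and Egr4, and for these genes the counts of both strands cannot be told apart.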

How the data were processed

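Libraries were made from polyadenylated RNA of isolated neurons and sequenced in pairs. According to the submitters' processing notes the authors used fastp, FastQC, STAR, SAMtools, StringTie and DESeq2 with GRCm39; versions, annotation and strand setting are, in the sources used here, not given. The authors deposited raw counts per gene, which were used, and normalized values, which were not used. Of 46382 gene rows, 49 repeats with identical counts were dropped, leaving 46333 genes.

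The 40 members and all lists were chosen with earlier results of these data known. Genotype was tested with edgeR 4.0.16 (TMM, filterByExpr, quasi-likelihood F-test, R 4.3.3) over 21542 genes, with Benjamini-Hochberg adjustment and a threshold of 0.05. DESeq2 1.42.0 (29539 genes with at least 1 count, 16345 with an adjusted p) and limma 3.58.1 (voom) were alternatives, as were other scalings and filters, marker covariates, a replicate block and leaving out each library. SEs of edgeR values were derived from the F statistic. The edgeR and DESeq2 steps were tested on simulated data. Values in every library are printed for members called by either tool, those with the 10 smallest edgeR p, the 6 neuron-restricted members, and Fos, Fosb, Jun, Junb, Egr1 and Nr4a1. Log2 differences by library used a prior count of 2. Exon lengths and overlaps came from GENCODE M39, in which 13 of the 40 members have the span given in the files. Promoters were searched over 500 bases, a window chosen after a shorter one had been looked at. Levels relative to summed markers were also added after the data were seen.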

Additional observations from a re-analysis of the deposited data

Results flagged for a closer look

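Within the 4 cre- libraries, 3 members had a lowest library far from the others. This was judged by the gap to the nearest library as a share of the group's range, above Dixon's 95% limit for 4 samples. In all 53 groups were checked, the tested members and the medians of gene sets, and chance alone passes the limit in about 1 of 20 groups. The share was 0.939 for Per1, a clock gene also induced by CREB, which had 55.3 CPM in cre- replicate 1 and between 138 and 146 CPM in the other cre- libraries. It was 0.863 for Ccn2, a secreted matrix protein, with 26.9 CPM in cre- replicate 1 and between 46.9 and 51.2 CPM in the others. It was 0.859 for Trib1, a pseudokinase, with 10.4 CPM in cre- replicate 1 and between 15.5 and 16.6 CPM in the others. None of these genes was called between genotypes.

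The median log2 difference over the 22 endothelial markers was 0.35 in cre- replicate 4 and between -0.15 and -0.08 in the other cre- libraries (share 0.851). Over the 10 astrocyte markers cre- replicate 3 was the high library (share 0.916).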

How the results depend on the processing

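In edgeR no member was called under any alternative scaling, filter, covariate or left-out library. Over all genes edgeR called 0, but 5 without cre+ replicate 1 (0 to 5 over the left-out libraries), and DESeq2 called 1990, of which 11 members were higher and 2 lower. The DESeq2 count of members ranged between 1 and 13 higher and between 1 and 4 lower when a library was left out. Over all genes it ranged between 407 and 1163 higher and between 348 and 1318 lower. Members called higher numbered 6 on leaving out cre- replicate 1, 5 on leaving out cre- replicate 3 and 7 when cre+ replicate 2 was dropped. All genes called higher in these fits numbered 935, 545 and 645. No member was called higher or lower with the endothelial or the neuronal covariate, although the median of the widely expressed members was 0.74 and 0.67. Calls were also few over all genes, with 125 and 249 higher and 63 and 143 lower under these 2 covariates. The replicate numbers did not pair the samples (correlation of deviations -0.03, -0.0036 and 0.09 for the same number). With a replicate block DESeq2 called 11 members higher and 4 lower, beside 765 genes higher and 778 lower of 20948. The median over all members ranged between 0.14 (without cre+ replicate 3) and 0.64 over the left-out libraries, and that of the neuron-restricted members was 0.21 with the endothelial and -0.0028 with the neuronal covariate. With the endothelial covariate the sign turned for Egr3 (0.48), Egr4 (0.55), Arc (0.15) and Homer1 (0.28), and with the neuronal covariate for Egr3 (0.28), Egr4 (0.29) and Homer1 (0.16). Relative to summed neuronal markers Homer1 was at 0.055. Without cre+ replicate 3 the sign turned for 11 of the 39 tested members, and the median of the widely expressed members was 0.33. Over the left-out libraries Fos ranged between -0.38 and 1.18, Fosb between -0.85 and 1.23, Junb between -0.21 and 0.82, Egr1 between -0.68 and 0.46 and Nr4a1 between -0.029 and 1.12. Egr1 was also negative with limma-voom (-0.056), with the replicate block (-0.30, as was Fosb at -0.086) and without cre- replicate 4 (-0.043). The cause of these changes was not tested. Of the other single-gene values, 13 passed the threshold only in DESeq2 and 369 kept their direction. Those of the 369 that had an adjusted p also kept their side of the threshold, whereas values relative to summed markers had none. Depth limits Fosl1, which was not tested.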
